A study of Mus musculus with 21 samples.

Results

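The comparison set N202 mouse mammary carcinoma cells adapted to bone marrow against the same cells adapted to lung, at each of 4 passages. Its members were the arrays whose labels name bone marrow (4 arrays) or lung (4 arrays) as the co-implanted tissue, 8 of the 21 arrays of the series, and each bone marrow array was set against the lung array of the same passage number. Cells of the parental line were not part of it. N202 derives from a tumour of FVB-NeuN mice, in which the MMTV promoter drives a rat HER-2/neu transgene in mammary epithelium, and the cells also carried H2B-GFP with a G418 resistance marker. In both groups tumour spheroids were placed on minced, revascularized tissue of C57BL/6 donors in a dorsal skinfold chamber on female nude mice, which lack a thymus and mature T cells but keep innate immune cells. A passage lasted 21 days, so passages 1 to 4 stand for 21, 42, 63 and 84 days on tissue. After each passage the cells were cultured with G418, sorted for GFP and cultured again before RNA was taken, so every value is from cultured cells after they left the tissue. Each tissue had 1 array per passage and 1 adaptation line. The 4 passages are therefore serial samples of 1 line on each tissue, and the spread in every main test is that over passages. An effect of the tissue and a peculiarity of the line cannot be told apart. The study describes a growth rate that rose steadily on bone marrow and an irregular adaptation to lung. Growth in the chamber and in culture correlated poorly on lung. The study says this appeared due to growth arrest from hemolysis at several time points. Its bearing on the differences below was not tested. The number of animals behind an array was not given in the sources used here.

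Bone marrow and lung are frequent sites of breast cancer metastasis, and tumour cells that reach them meet different neighbours: blood-forming and bone-remodelling cells in the marrow, and gas-exchanging epithelium, capillaries and alveolar macrophages in the lung. Tumour cells display peptides to T cells on MHC class I molecules. The immunoproteasome cuts the peptides, the TAP transporter carries them into the endoplasmic reticulum, tapasin loads them, and interferons and NF-kappaB raise the genes of this pathway. Invasive cells in turn use secreted proteases such as urokinase, and mammary cells keep a luminal identity under transcription factors such as Elf5 and Gata3.

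Few genes passed the test between the bone marrow and lung lines. Values were RMA expression levels on the log2 scale, and a difference is bone marrow minus lung, so 1 stands for 2-fold. Of 7040 genes tested (limma with passage as a block, Benjamini-Hochberg adjusted p under 0.05), 1 was called higher in bone marrow cells (0.0142%) and 0 lower (0%). Without adjustment, 731 genes were at p under 0.05 in the positive direction (10.4%) and 439 in the negative direction (6.24%). The lowest adjusted p of a gene that was not called was 0.129. The probe set with the lowest adjusted p (0.0335, against 0.0358 for the called gene) has no gene in the annotation used. It was also called, with a difference of -1.35. All 4 bone marrow arrays lay above all 4 lung arrays for 563 genes (8%) and below all 4 for 230 genes (3.27%). With the arrays scaled to equal medians these counts were 410 and 372, and after cyclic loess 369 and 381, so the split between the directions moved with the scaling. The median difference of all genes was 0.04. Every gene named below other than Akr1b8 missed this threshold or lay below the filter on dim probe sets, and its values are given as a description.

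The size of the differences varied by passage. At passages 1, 2, 3 and 4 the SD of the differences over genes was 0.29, 0.38, 0.48 and 0.32. Differences of at least 2-fold in the positive direction numbered 38, 81, 95 and 20, and those in the negative direction 4, 43, 211 and 43. Passage 3 held the most of both. Across the 7040 genes, which are not independent, the differences at passage 1 and at passage 2 had r = -0.04, whereas those at passages 2 and 4 and at passages 3 and 4 had r = 0.46 each. The lung array of passage 1 had a higher floor than the other 7 arrays (5th percentile of all probe sets 2.71, against 2.01 to 2.26), which bears on dim genes at that passage.

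The cultures carried the markers of mammary tumour cells. Of 10 tumour cell markers 9 were above the filter, and their mean level over the list was 10.19 to 10.52 in bone marrow cells and 10.35 to 10.47 in lung cells. Krt8 and Krt18, the keratins of luminal epithelium, averaged 12.78 and 12.58 over the 8 arrays. Lists of leukocyte, erythroid, stromal, osteoblast, adipocyte, lung epithelial, and skin and muscle markers had 0 members above the filter. Leukocyte markers averaged 4.12 to 4.35 in bone marrow cells and 4.12 to 4.40 in lung cells, and Ptprc, the pan-leukocyte antigen CD45, averaged 3.71. Cd68, a macrophage marker, was 7.49 in the lung array of passage 4, against 5.90 to 6.78 in the other 7 arrays, and Fcer1g, an Fc receptor subunit, was 5.26, against 4.09 to 5.10. Of the 12 leukocyte markers these 2 were highest in that array. The neutrophil list had 1 member above the filter, Ltf, which mammary epithelium also makes. The granule proteins Mpo and Elane of that list averaged 4.34 and 4.60. Flt1 was the sole endothelial marker above the filter.

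Akr1b8 was the one gene called. It encodes an aldo-keto reductase that detoxifies reactive aldehydes and stands in the list of NRF2 targets. Its level was 7.17, 7.91, 8.22 and 8.41 in bone marrow cells at passages 1 to 4, against 5.61, 5.72, 6.87 and 6.84 in lung cells. Every bone marrow array lay above every lung array, and both lines had higher values at passage 4 than at passage 1. The difference was 1.67 ± 0.16 (SE, 4 pairs; 95% interval 1.30 to 2.03), or 3.18-fold, with limma adjusted p = 0.0358. Akr1b8 was also the only tested gene at least 2-fold higher at all 4 passages (0.0142% of genes), and 0 genes were at least 2-fold lower at all 4. The call was lost without the block (adjusted p = 0.105), with no filter on dim probe sets (0.644), and when any 1 passage was left out (0.0664 to 0.288). The mean of Akr1b8 in lung cells was 6.26, under the lowest mean that the filter kept (6.90). It thus passed the filter through the bone marrow arrays, where it is high. Of 25 measured NRF2 targets it was the only one called. Gsto1, a glutathione transferase, differed by 0.64 (adjusted p = 0.189), and Mgst1, a membrane-bound glutathione transferase, by -0.77 (0.189). The list's median of 0.09 was near that of all genes.

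A pair of dimmer genes lay further apart. Klk6, a secreted kallikrein protease, and Trim30a, an interferon-induced TRIM protein, averaged 6.71 and 6.34 over the arrays and did not reach the filter, whose lowest kept mean was 6.90. They are named because, with no filter, they joined Akr1b8 as the only genes at least 2-fold apart with the same sign at every passage. Klk6 had 6.26, 7.66, 7.86 and 8.55 in bone marrow cells, against 4.86, 6.41, 5.83 and 6.27 in lung cells. Trim30a had 5.86, 5.70, 4.83 and 4.97 in bone marrow cells, against 7.38, 7.61, 7.44 and 6.92 in lung cells. All bone marrow arrays lay below all lung arrays for Trim30a, a difference of -2.00. With no filter its limma adjusted p was 0.644.

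**Figure D1:**
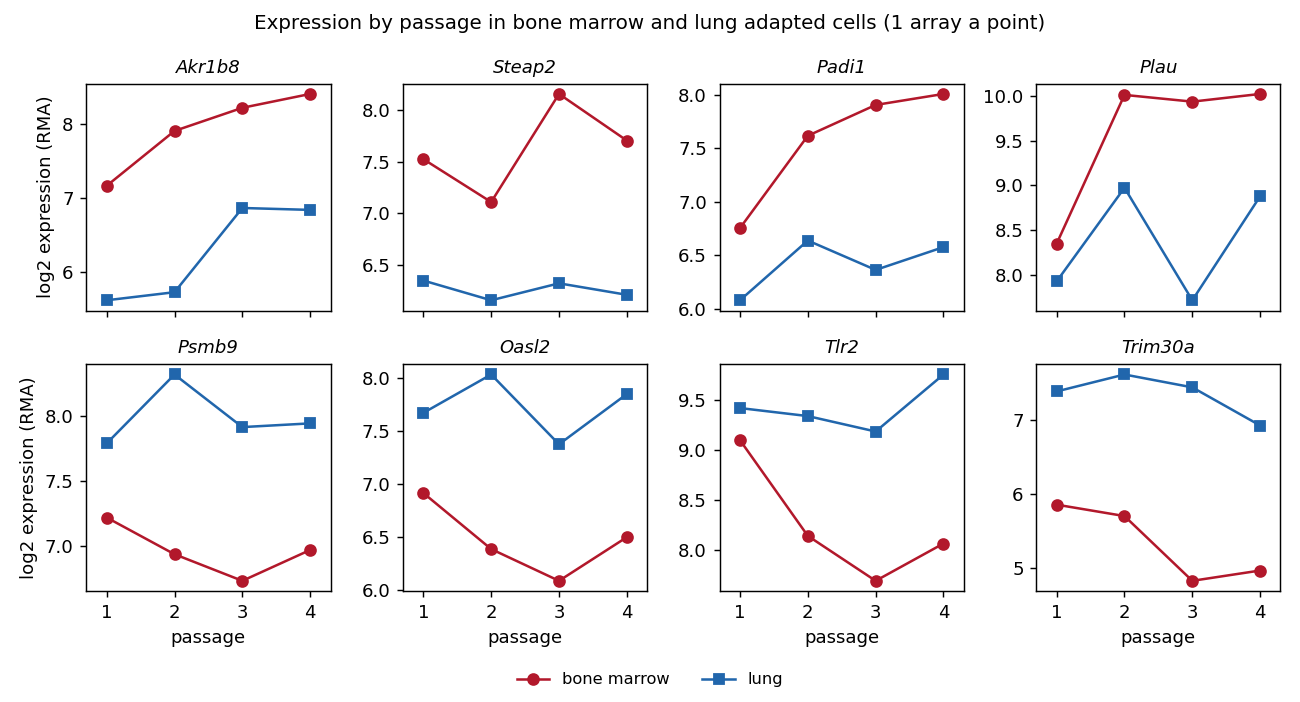
Log2 expression (RMA) of 8 genes in bone marrow cells (red circles) and lung cells (blue squares) against passage, 1 array a point, so there are no error bars; the axes differ between genes. The lines stay apart at every passage for all 8 genes, and of these only Akr1b8 passed the test.

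Of all the lists, antigen processing held the largest share of members without overlap in one direction. Of the 25 listed, 13 passed the filter, 0 were called, and 8 (61.5%, against 3.27% of all genes) had all bone marrow arrays below all lung arrays. None had all arrays above. With 7000 probe sets kept the share was 3 of 8 (37.5%), and without passage 4 it was again 8 of 13. Their median difference was -0.37, against 0.04 for all genes, and at passages 1 to 4 it was -0.13, -0.53, -0.70 and -0.68. Psmb9, an inducible catalytic subunit of the immunoproteasome, had 7.22, 6.94, 6.73 and 6.97 in bone marrow cells, against 7.79, 8.31, 7.91 and 7.94 in lung cells. The groups did not overlap, and the difference was -1.02 ± 0.15 (SE; adjusted p = 0.150). Its partner subunits Psmb8 and Psmb10 differed by -1.11 (adjusted p = 0.168) and -0.81 (0.168), each without overlap.

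Tapbp, the peptide-loading chaperone tapasin, had 9.94, 9.91, 9.22 and 9.88 in bone marrow cells, against 10.50, 10.77, 10.55 and 10.92 in lung cells. Its difference was -0.95 ± 0.15 (adjusted p = 0.150). The groups did not overlap, and the passage 3 array of bone marrow was the lowest. Tapbpl, the tapasin-related peptide editor, differed by -0.75 (adjusted p = 0.168) and Tap2, a subunit of the peptide transporter, by -0.52 (0.195). Erap1, which trims peptides in the endoplasmic reticulum, differed by -0.37 (-0.24 without passage 3) and the proteasome activator Psme2 by -0.34. In the remaining members the groups overlapped: B2m, the light chain of MHC class I, differed by -0.15 (-0.02 without passage 2) and Nlrc5, a transactivator of the class I genes, by -0.14. Psmb8, Psmb9, Tapbp and Tap2 lie on chromosome 17, whose median was also lower in bone marrow cells, by a smaller step given below. Tapbpl, Psmb10, Erap1 and Psme2 lie on chromosomes 6, 8, 13 and 14. H2-Q4, a class I gene outside the list that was chosen after its values were seen, differed by -0.78, without overlap, and shares sequence with other class I genes that probes may not separate.

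Below the filter were 7 more members of the list, with mean levels of 3.07 to 6.57. Tap1, the partner of Tap2, had 6.37, 6.27, 6.05 and 6.19 in bone marrow cells, against 6.88, 6.85, 6.92 and 7.02 in lung cells. Tap1 and Cd74 had all bone marrow arrays below all lung arrays, against 2.05% of the 12897 genes below the filter. Cd74, the invariant chain of MHC class II, was 6.04 in the lung array of passage 4, against 4.44 to 4.66 in the other lung arrays. That array also had the highest Cd68 and Fcer1g, and the part of other cells in its values was not tested.

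The promoters of Psmb9, Erap1 and Ddx58 show where the letters of an interferon-stimulated response element core did and did not occur. Sequences are from RefSeq (GRCm38.p6), 250 bases before to 50 bases after the start of the gene (position 0), and capitals mark a match to the core, GAAA followed by any 2 bases and GAAA again, on either strand. Psmb9 and Tap1 start back to back, so that 275 bases of their windows are the same sequence on opposite strands.
Psmb9, chr17:34187281-34187580, minus strand, no match: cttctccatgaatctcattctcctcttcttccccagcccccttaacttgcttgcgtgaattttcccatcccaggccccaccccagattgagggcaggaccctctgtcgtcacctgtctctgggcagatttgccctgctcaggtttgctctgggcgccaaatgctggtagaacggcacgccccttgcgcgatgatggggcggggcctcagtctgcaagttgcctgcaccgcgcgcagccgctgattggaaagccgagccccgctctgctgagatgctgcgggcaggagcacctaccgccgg
Erap1, chr13:74639603-74639902, plus strand, match from position -4: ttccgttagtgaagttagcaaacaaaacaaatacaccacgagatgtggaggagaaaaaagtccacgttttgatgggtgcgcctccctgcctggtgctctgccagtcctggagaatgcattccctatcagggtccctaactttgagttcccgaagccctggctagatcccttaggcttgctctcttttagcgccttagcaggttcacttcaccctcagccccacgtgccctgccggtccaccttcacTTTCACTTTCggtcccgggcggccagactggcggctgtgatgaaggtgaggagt
Ddx58, chr4:40239776-40240075, minus strand, match from position 2: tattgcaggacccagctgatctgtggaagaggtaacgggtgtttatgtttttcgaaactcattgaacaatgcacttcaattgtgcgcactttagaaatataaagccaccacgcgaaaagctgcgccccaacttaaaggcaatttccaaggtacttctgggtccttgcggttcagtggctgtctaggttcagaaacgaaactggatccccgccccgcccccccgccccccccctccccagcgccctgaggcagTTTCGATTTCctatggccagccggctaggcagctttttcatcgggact
The core occurred in 3.44% of 32851 promoters. Among the 12 antigen presentation and interferon-induced genes with all bone marrow arrays below, 9 had a promoter in the table and 2 matched, Erap1 and Ddx58. Among the 9 members whose groups overlapped, 8 had a promoter and 2 matched, B2m and Psme1. An NF-kappaB match (GGGA, any 1 base and TTTCC, either strand, in 0.411% of promoters) occurred in 0 of the 9 and in 1 of the 8. The windows are short, and a match is a description of letters and not of binding.

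Type I interferon-induced genes also had mostly negative differences. Of 43 listed, 8 passed the filter, 0 were called, and 4 (50%, against 3.27%) had all bone marrow arrays below all lung arrays, with a median difference of -0.31. Oasl2, a sensor-like protein of the oligoadenylate synthetase family, had 6.92, 6.39, 6.09 and 6.50 in bone marrow cells, against 7.67, 8.03, 7.38 and 7.85 in lung cells. The difference was -1.26 ± 0.16 (SE; adjusted p = 0.148). Lgals3bp, a secreted galectin-binding glycoprotein, had 8.89, 8.65, 8.03 and 8.70 in bone marrow cells, against 10.05, 9.36, 10.20 and 9.99 in lung cells. Its difference was -1.34 ± 0.22 (adjusted p = 0.150). Neither gene overlapped between the tissues. Parp9, a partner in interferon signalling, differed by -0.53, and Ddx58, the RNA sensor RIG-I, by -0.25, both without overlap. Irf1, a transcription factor of the interferon response, overlapped and differed by -0.37.

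Most of the list was dim: 28 of its genes lay below the filter with mean levels of 2.63 to 6.89. Of these, 8 had all bone marrow arrays below all lung arrays (2.05% of genes below the filter) and 0 above, and 15 were negative at every passage (9.42%). Besides Trim30a, Gbp3 (guanylate-binding protein) differed by -1.12, Irgm1 (an interferon-induced GTPase) by -0.72 and Parp14 by -0.56 among the 8. Classical members such as Mx1 and Ifit3 were close to background, with mean levels of 3.41 and 3.75.

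**Figure D2:**
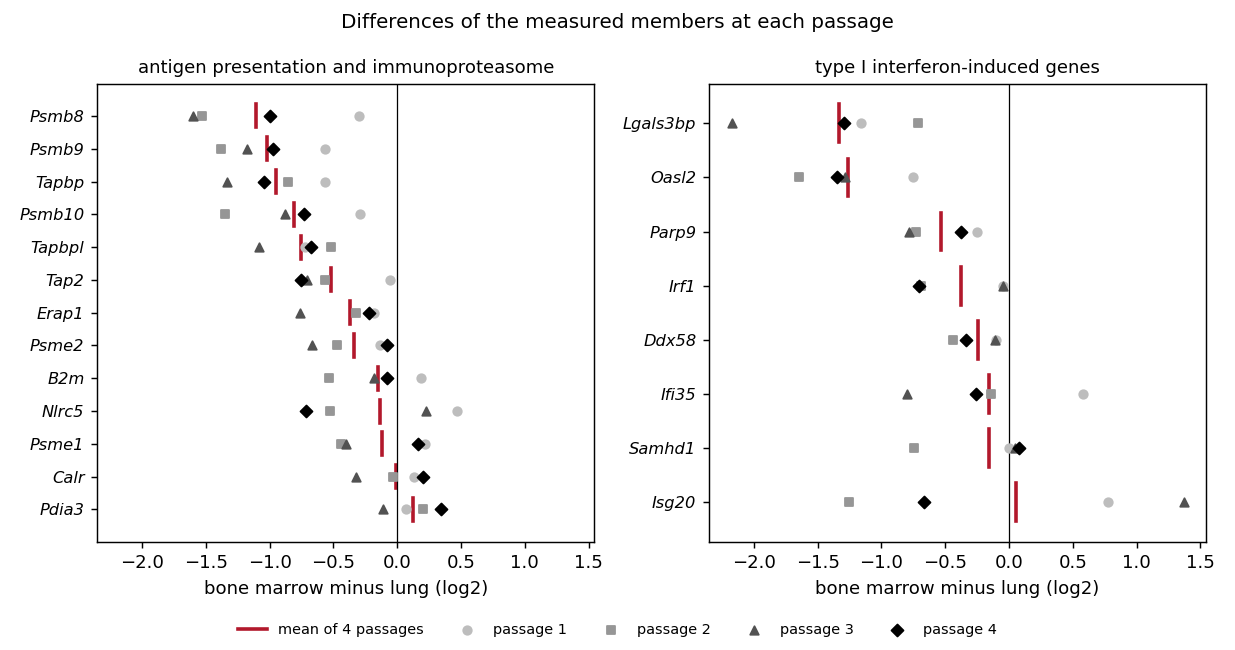
Difference (bone marrow minus lung, log2) at each passage for the 13 antigen presentation members (left) and the 8 interferon-induced members (right) above the filter; each symbol is 1 passage and the red bar the mean of 4. The members at the top lie left of 0 at every passage, and those at the foot lie on both sides.

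The leading members of innate sensing also had negative differences. Among 24 Toll-like receptor and NF-kappaB genes measured, 0 were called, 2 had all bone marrow arrays below (8.33%, against 3.27% of all genes) and 0 above (8% of all genes), and the median difference was -0.14. Tlr2, the receptor for bacterial lipoproteins, had 9.10, 8.14, 7.69 and 8.06 in bone marrow cells, against 9.42, 9.34, 9.19 and 9.76 in lung cells. The difference was -1.18 ± 0.22 (SE; adjusted p = 0.168), and it was -0.32 at passage 1 and -1.69 at passage 4. Tnip1, an inhibitor of NF-kappaB, differed by -0.76 (adjusted p = 0.163) without overlap. Nfkbie, another inhibitor, differed by -0.65 (0.168) with overlap, and Myd88, the adaptor of the receptors, by -0.10.

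The chemokine and cytokine genes that such signals control did not share a direction. Of 14 measured, 0 were called and the median was 0.11, with passage medians between -0.22 and 0.65. Cxcl1 and Cxcl5, which attract neutrophils, differed by 0.31 (0.12 without passage 2) and 0.02, and Csf3, the growth factor for neutrophils, by 0.21. Csf3 was 1.65 apart at passage 2 and -1.49 at passage 3. Clcf1, a cytokine of the interleukin-6 family, differed by 0.93 (adjusted p = 0.205), and by 0.52 without passage 3. Cx3cl1, fractalkine, differed by -0.43 (0.252). Cxcl16 alone had all bone marrow arrays below (7.14% of the list, against 3.27% of all genes), with -0.25.

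Urokinase and its receptor had positive differences at every passage. Plau, urokinase, which activates plasminogen, had 8.35, 10.01, 9.94 and 10.02 in bone marrow cells, against 7.93, 8.97, 7.72 and 8.88 in lung cells. The difference was 1.21 ± 0.26 (SE; adjusted p = 0.168). The passage 1 array of bone marrow lay within the range of the lung arrays, and the other 3 above it. Plaur, the urokinase receptor, had 7.93, 9.74, 9.30 and 9.43 in bone marrow cells, against 7.50, 8.12, 7.64 and 9.23 in lung cells, a difference of 0.98 (adjusted p = 0.189). Prss22, a serine protease, and Timp1, a metalloproteinase inhibitor, differed by 0.59 each, while Timp2, a related inhibitor, differed by -0.53 (0.174) without overlap. Over the 27 measured proteases and inhibitors 0 were called and the median was -0.11. At every passage 5 were positive (18.1% of all genes were) and 5 negative (9.57%). Without overlap 0 lay above (8% of all genes) and 1 below (3.7%, near the 3.27% of all genes).

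The ErbB list held members on both sides. Erbb2, the receptor whose rat form drives the tumour, had 9.83, 10.10, 9.21 and 9.99 in bone marrow cells, against 10.30, 10.45, 10.99 and 10.24 in lung cells. The groups did not overlap, and the difference was -0.71 ± 0.25 (SE; adjusted p = 0.241), of which passage 3 gave -1.78. Whether the mouse probes also read the rat transgene was not tested. Erbb3, its partner receptor, differed by -0.46 (0.264), also without overlap. Without passage 3, Erbb2 differed by -0.36 and Erbb3 by -0.26. The related receptor Egfr differed by -0.003 with overlap. The ligand Hbegf had 8.34, 10.45, 9.79 and 9.82 in bone marrow cells, against 8.19, 8.37, 8.62 and 8.93 in lung cells, a difference of 1.07 (0.187). Dusp5, a phosphatase that ERK induces, differed by 0.65 (0.173), and Fosl1, an AP-1 subunit that ERK stabilizes, by 0.84 (0.173). Errfi1, a feedback inhibitor of ErbB kinases, differed by 0.51 (0.173) with no overlap, while the feedback genes Dusp6 and Etv5 differed by 0.08 and -0.10. Of the 21 measured members 0 were called, 7 were positive at every passage (18.1% of all genes were) and 2 negative (9.57%). Without overlap 1 lay above (4.76%, against 8% of all genes) and 2 below (9.52%, against 3.27%).

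Regulators of luminal mammary identity had mostly negative differences. Of 15 measured, 0 were called, 4 had all bone marrow arrays below (26.7%, against 3.27%) and 8 were negative at every passage (9.57% of all genes were). The median was -0.38, and by passage it was -0.31, -0.10, -0.83 and -0.09. Elf5, which commits cells to the milk-secreting lineage, had 9.38, 9.18, 8.33 and 9.35 in bone marrow cells, against 9.73, 9.63, 10.08 and 9.97 in lung cells. Its difference was -0.80 ± 0.23 (SE; adjusted p = 0.197), with -1.75 at passage 3, and was -0.48 without that passage. Stat5a, the prolactin-activated transcription factor, differed by -0.51 and Sox10, a mammary progenitor factor, by -0.58, each without overlap. Gata3 differed by -0.42 and Id2, an inhibitor of helix-loop-helix factors, by -0.70, with overlap. The luminal keratins Krt8 and Krt18 differed in the positive direction, by 0.29 and 0.15, and each was negative at passage 4. Krt7, from the list of keratins and epithelial junctions, differed by 0.58 (limma adjusted p = 0.173), positive at every passage and with overlap.

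Ltf, lactoferrin, an iron-binding milk and mucosal protein, was the only measured member of the luminal list with a positive difference at every passage. It had 9.9995, 10.10, 11.48 and 11.14 in bone marrow cells, against 8.24, 7.72, 10.92 and 10.40 in lung cells. The difference was 1.36 ± 0.29 (SE; adjusted p = 0.168) and was 2.38 at passage 2 and 0.56 at passage 3.

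Lysosomal genes had mostly small negative differences. Of 31 measured, 0 were called, 3 had all bone marrow arrays below (9.68%, against 3.27% of all genes) and 0 above (8% of all genes), and the median was -0.19. By passage the median was -0.02, 0.07, -0.44 and -0.44, so the negative medians were mainly those of passages 3 and 4. Mcoln1, the lysosomal calcium channel, differed by -0.45 (adjusted p = 0.202), the membrane protein Lamp1 by -0.31 and the proton pump subunit Atp6v1f by -0.43, each without overlap. Atp6v1b1, a pump subunit of acid-secreting cells, differed by -0.88 (0.24), of which passage 3 gave -2.16, and by -0.46 without it.

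Genes of glycolysis and DNA replication had mostly small positive differences. Of 21 glycolysis and hypoxia genes measured 0 were called, 6 were positive at every passage (18.1% of all genes were) and 1 negative (9.57%). The median was 0.18, with passage medians of 0.23 to 0.26. Without overlap 2 lay above (9.52%, near the 8% of all genes) and 0 below (3.27% of all genes). Ldha, which makes lactate, had 12.49, 12.47, 12.63 and 12.45 in bone marrow cells, against 12.10, 12.13, 12.21 and 12.12 in lung cells. The groups did not overlap, and the difference was 0.37 (adjusted p = 0.204). Slc16a1, the lactate transporter MCT1 from the list of transporters, differed by 0.62 (0.168), also without overlap. Hk2, the first enzyme of glycolysis, differed by 0.72 (0.168), and Ero1a, a hypoxia-induced oxidase of the endoplasmic reticulum, by 0.76 (0.168). Aldoc, an aldolase, differed by -0.87 (0.173).

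Of 36 DNA replication genes measured 0 were called, 14 were positive at every passage (18.1% of all genes were) and 1 negative (9.57%). The median was 0.15. Without overlap 3 lay above (8.33%, near the 8% of all genes) and 0 below (3.27% of all genes). Mcm3, a helicase subunit, differed by 0.41 (adjusted p = 0.194) and Rrm2, the small subunit of ribonucleotide reductase, by 0.47 (0.187), both without overlap. Ccne2, cyclin E2, differed by 0.56 (0.173). The 42 mitosis genes had a median of 0.07 and 0 calls. Among 12 p53 targets 0 were called and 2 lay above without overlap (16.7%, against 8% of all genes). These were Plk2 and Zmat3, which p53 induces, with differences of 0.83 (0.55 without passage 3) and 0.48.

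Transporters had wide differences in both directions. Steap2, a metalloreductase for iron and copper, had 7.53, 7.11, 8.16 and 7.71 in bone marrow cells, against 6.35, 6.16, 6.32 and 6.21 in lung cells. All bone marrow arrays lay above all lung arrays, and the difference was 1.37 ± 0.16 (SE; adjusted p = 0.129), the lowest adjusted p among genes not called. When the probe sets of each gene were averaged and p adjusted over genes, Steap2 (0.0377) and Oasl2 (0.0411) were called beside Akr1b8. Each of these genes had a mean under the filter's lowest kept mean of 6.90 in the tissue where it was lower. Slc4a11, a proton and water transporter, differed by 1.24 (0.163) with overlap. The zinc transporters Slc39a10 and Slc39a4 differed in opposite directions without overlap, by 0.57 (0.168) and -1.32 (0.190). Slc39a4 had 8.41, 7.83, 6.93 and 8.04 in bone marrow cells, against 8.80, 8.43, 9.75 and 9.54 in lung cells, and without passage 3 it differed by -0.83. Slc1a5, a glutamine transporter, differed by 0.60 (0.173) without overlap. Of 32 measured transporters 0 were called, 3 lay above (9.38%, against 8% of all genes) and 1 below (3.12%, against 3.27%) without overlap.

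Few genes of bone or of lung were measured above the filter. Of 37 bone genes 9 passed the filter, 0 were called and the median was 0.01. Ank, a pyrophosphate exporter that limits mineral formation, had 7.23, 9.25, 8.76 and 8.93 in bone marrow cells, against 6.61, 7.95, 7.83 and 7.18 in lung cells, a difference of 1.15 (adjusted p = 0.150) with the passage 1 array of bone marrow inside the lung range. Bcl9, a cofactor of beta-catenin, differed by -0.92 (0.187), and by -0.60 without passage 3. Of 28 lung epithelial genes 7 passed the filter, 0 were called and the median was 0.05.

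**Figure D3:**
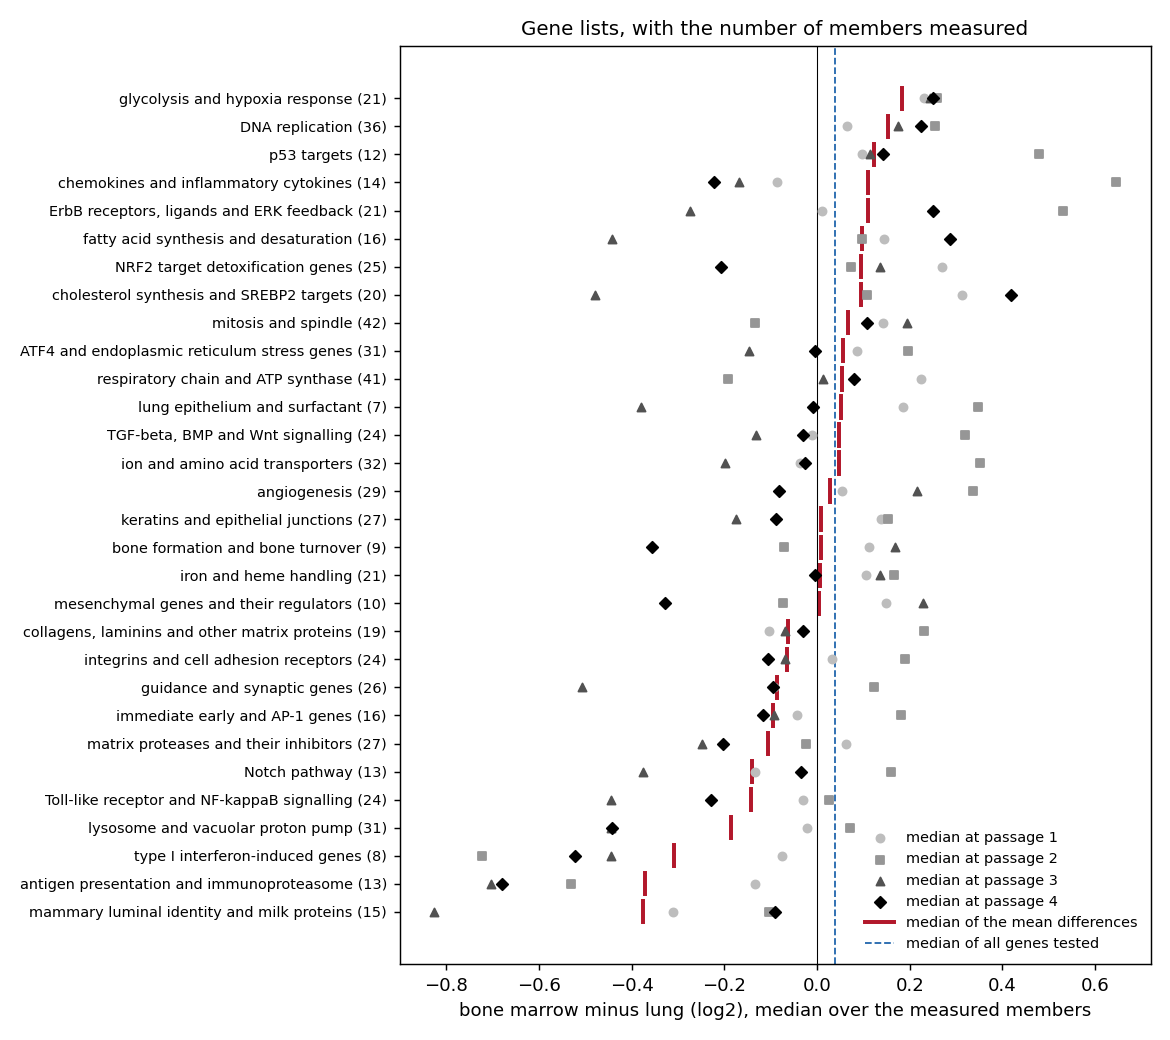
Median difference (bone marrow minus lung, log2) over the measured members of each gene list, at each passage (grey to black symbols) and of the mean differences (red bars); the dashed blue line is the median of all genes tested, 0.04, and counts of members stand in parentheses. The antigen presentation, interferon-induced and mammary luminal lists lie left of 0 at all 4 passages, while most other lists lie on both sides.

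Padi1 and Phlda2, outside every list, were chosen after their values were seen. Padi1, which converts arginine to citrulline in proteins, had 6.75, 7.62, 7.91 and 8.01 in bone marrow cells, against 6.08, 6.64, 6.36 and 6.58 in lung cells (difference 1.16, limma adjusted p = 0.150, no overlap). Phlda2, an imprinted growth regulator, differed by 1.01 (0.150) without overlap. The ligand Sema3e and its receptor Plxnd1, with the lowest p of the guidance and synaptic list, differed by 0.97 (0.168) and -0.76 (0.187), each without overlap. Gja1, connexin 43, from the list of junction genes, differed by 0.73 (0.189), and Apobec1, a cytidine deaminase that the study lists for lung and that was chosen after its values were seen, by -0.89 (0.168), again without overlap.

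The study names 50 genes for bone marrow and 52 for lung, chosen on these same arrays, so their direction here is not independent evidence. Of the bone marrow genes 37 were measured, 0 were called, 2 lay above and 2 below without overlap (5.41% each, against 8% and 3.27% of all genes), and the median was 0.16. Of the lung genes 35 were measured, 0 were called, 0 lay above and 6 below (17.1%, against 3.27%), and the median was -0.27. The lists shared 8 measured genes, of which 3 had positive and 5 negative differences, between -1.32 (Slc39a4) and 0.60 (Slc38a1, 0.23 without passage 2). Adamts1, a secreted metalloprotease of the bone marrow list, differed by -0.45, and by -0.25 without passage 3. Ptk7 and Fgfr1, a receptor-like kinase and a growth factor receptor of the lung list, differed by -0.04 and 0.05.

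No gene was called for a trend of the difference over passages (limma, 0% in each direction). By slope, 80 were at unadjusted p under 0.05, and the lowest adjusted p among genes was 0.298. Over all kept probe sets 174 were, fewer than the 500 that this threshold gives by its own rate. The genes given next were picked for a low trend p, so their steady series are no sign of a trend. Ceacam1, a cell adhesion molecule of epithelia, had differences of 1.01, 0.46, -0.37 and -1.40 at passages 1 to 4. Cldn1, a tight junction protein, had 0.12, 0.03, -0.83 and -1.95. Pglyrp3, which binds bacterial peptidoglycan, had -0.41, 0.45, 1.03 and 1.79.

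Medians of whole chromosomes differed between the lines by small steps. For each array the median of a chromosome's genes was taken relative to that of all other chromosomes, and of 20 chromosomes tested 3 were called higher in bone marrow cells (15%) and 2 lower (10%). Chromosome 15 was higher by 0.18 ± 0.05 (SE; limma adjusted p = 0.0356), with 0.16, 0.08, 0.40 and 0.09 at passages 1 to 4, and 80.3% of its 289 genes had a positive difference. Chromosome 12 was higher by 0.14 (adjusted p = 0.0356) with 74% of genes positive, and chromosome 14 by 0.13 (0.0430) with 69.8%, against 56.26% of all genes. Chromosome 3 differed by -0.10 (0.0356) and chromosome 17 by -0.11 (0.0356). Each kept its sign at all 4 passages, but so did chromosomes 2, 4, 8, 11 and 19, which were not called. A median shift of 0.18 on the log2 scale is 1.14-fold, smaller than most of the differences named above. With no filter on dim probe sets or without the block 0 chromosomes were called, and with passage 1 or passage 4 left out 0 were called too. With means in place of medians 4 were called, chromosomes 8, 13, 15 and 17, so chromosomes 3, 12 and 14 lost their call. Without passage 2 there were 2 calls (chromosomes 15 and 19), and without passage 3 there were 3 (chromosomes 12, 14 and 15). Copy number was not measured here.

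**Figure D4:**
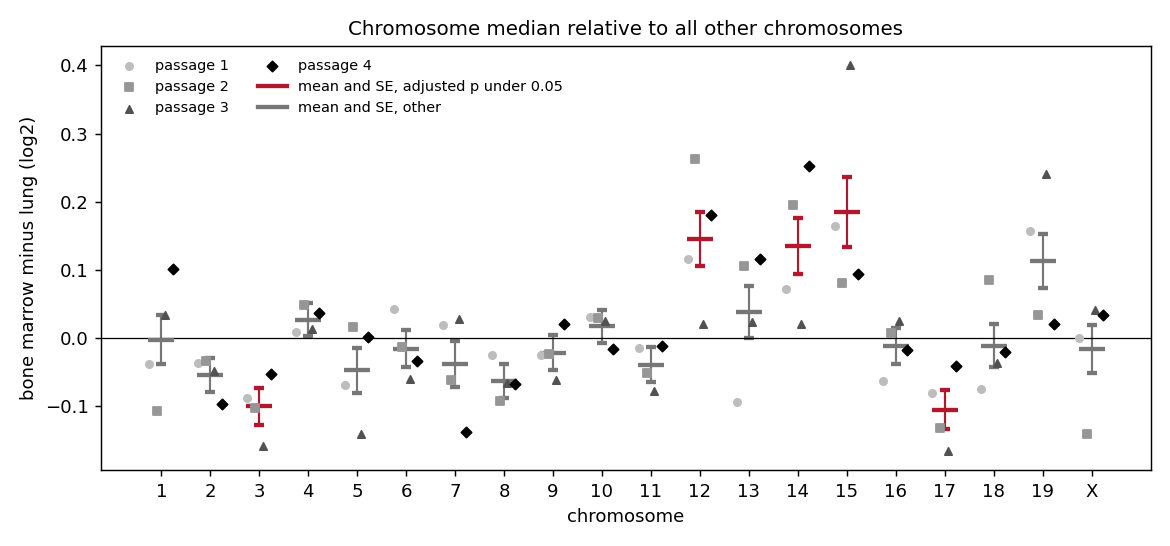
Difference (bone marrow minus lung, log2) in the median of each chromosome's genes relative to all other chromosomes; symbols are the 4 passages, the bar and whiskers their mean and SE, in red where the limma adjusted p was under 0.05. Chromosomes 12, 14 and 15 lie above 0 and chromosomes 3 and 17 below 0 at every passage. Chromosomes 4 and 19 (above 0) and 2, 8 and 11 (below 0), which were not called, do so too.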

How the data were processed

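Affymetrix Mouse Gene 1.0 ST arrays, 1 a sample, were used for the RNA of sorted N202 cells. The authors deposited log2 values after RMA (background correction, quantile normalization and median polish) in the Affymetrix Expression Console, with no dim probe sets removed. Of 34760 probe sets, the 10000 with the highest mean over the 8 arrays were kept (lowest mean 6.90), and 7040 genes were counted, 1 probe set a gene, named from the platform annotation. Probe sets with several symbols (420) or none (1977) were tested and not named. Differences were tested with limma 3.58.1 in R 4.3.3 (passage as a factor plus tissue, 3 residual degrees of freedom), with Benjamini-Hochberg adjustment over the kept probe sets and a threshold of 0.05. An exact sign-flip test over 4 pairs cannot go below p = 0.125, so none was used. The number of arrays, 4 a tissue, limits the precision. Figures were drawn with matplotlib 3.10.9 in Python 3.11.15.

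The block follows the labelled passage, not a shared animal. On simulated data with 10000 probe sets, 26 of 50 changed 1.5-fold and 50 of 50 changed 2-fold were recovered, with 18 false calls over all sizes. The simulation drew independent noise and changed 50 probe sets at each of 1.5-, 2-, 4- and 8-fold. In the data 2 probe sets were called, and with fewer changes the adjusted threshold is harder to pass. The recovery therefore does not carry over to these data, where Steap2, with a difference of 1.37, was not called.

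The members and gene lists were chosen with earlier results of these data known. Named genes were the called genes, the 2 lowest p values in each list, the study's genes for either tissue, Erbb2, the lowest trend p values and the most abundant markers, and others are said to have been chosen after their values were seen. Further list members were named after their values were seen, to show the range of a list. Alternatives were the filter, scaling, pairing, variance model, probe set choice and passages left out. Tests on probe sets with 1 gene symbol, and counts of genes without overlap under other settings, were added after the data were seen.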

Additional observations from a re-analysis of the deposited data

Results flagged for a closer look

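In 184 groups of 4 arrays the highest or lowest array stood apart from the other 3 in 8 groups by its gap relative to the range (Dixon's 95% limit), and chance flags about 1 group in 20. Among the bone marrow arrays, passage 1 stood below the rest for Plau (8.35, others 9.94 to 10.02), Prss22 (6.44, others 7.43 to 7.54) and Dusp5 (6.87, others 7.90 to 8.06). The passage 3 bone marrow array stood below the rest for Tapbp (9.22, others 9.88 to 9.94) and Erap1 (6.83, others 7.42 to 7.47), and above them for Ero1a (11.57, others 10.08 to 10.21). Among the lung arrays, passage 3 stood below for Gja1 (8.20, others 8.71 to 8.75) and passage 4 above for Apobec1 (8.08, others 7.76 to 7.77).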

How the results depend on the processing

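The number of genes called higher was 1, and it was 0 with no filter, with 7000 probe sets, without the replicate block, with passage as a random replicate block and without any 1 passage (0 to 0). It was 2 with the mean of the probe sets of a gene and 3 with the spread of the brain pairs, where Msln and Anxa8 joined Akr1b8 (adjusted p = 0.0484 each). The labels give those pairs as technical replicates of cells adapted to brain. That spread does not measure variation between passages or lines, so these 3 calls are not comparable with the main call. The number called lower was 0, and 1 with the 10000 probe sets chosen by the higher tissue mean or the highest group mean and with gene means (Oasl2). The first is Trim30a, which passes those filters through the lung arrays where it is high, so that call is no support. Akr1b8, Steap2 and Oasl2 passed the main filter with a mean under its lowest kept mean of 6.90 in 1 tissue. These means were 6.26 for Akr1b8 and 6.26 for Steap2 in lung cells, and 6.47 for Oasl2 in bone marrow cells. Their calls therefore also rest on the tissue where they are high. Genes at least 2-fold apart at every passage numbered 1, 3 with no filter, 0 with 7000 probe sets and 1 to 8 with a passage left out. Called chromosomes numbered 5, 0 with no filter or without the replicate block, 2 with 7000 probe sets, 4 with means in place of medians (chromosomes 8, 13, 15 and 17) and 0 to 3 with a passage left out. The chromosome 17 median difference turned to 0.008 with no filter. Genes with all bone marrow arrays above numbered 563, 369 after cyclic loess and 875 to 1228 with a passage left out. Those below numbered 230, 495 with no filter, 138 with 7000 probe sets, 372 with equal medians, 381 after cyclic loess and 321 to 775 with a passage left out. Antigen presentation members below numbered 8 of 13, and 3 of 8 with 7000 probe sets, and interferon-induced members 4 of 8, 12 of 36 with no filter and 2 of 6 with 7000. A stricter or absent filter changes the genes tested, and the cause of the other shifts was not tested. Small differences that changed sign were those of Cxcl5 (-0.016 with equal array medians, -0.053 after cyclic loess, -0.35 to 0.24 with a passage left out), Ptk7 (0.029 with chromosome medians subtracted, -0.17 to 0.21 with a passage left out), and, with a passage left out, Nlrc5 (-0.34 to 0.054), Myd88 (-0.20 to 0.036), Csf3 (-0.27 to 0.78), Egfr (-0.19 to 0.088, and 0.0039 with chromosome medians subtracted), Dusp6 (-0.13 to 0.41), Etv5 (-0.31 to 0.23) and Fgfr1 (-0.20 to 0.24). The other 78 genes recomputed kept their sign under every alternative run. Akr1b8 lost its call under 7 and was not tested with 7000 probe sets. As a check of the pairing, deviations from the tissue means at passages 1 to 4 correlated between bone marrow and lung arrays at 0.31, -0.09, -0.23 and 0.34 over genes, so the arrays share a passage number and not a shown pairing. Levels near the floor of an array are only approximate.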
